A study of Mus musculus with 14 samples.

Results

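The genes described are 10 genes of muscle atrophy and FoxO signalling: the transcription factors Foxo1, Foxo3 and Foxo4, the ubiquitin ligase genes Fbxo32, Trim63, Fbxo30 and Fbxo21, and the stress and hormone-responsive genes Klf15, Cebpd and Ddit4. They were taken by gene name, and all 10 were found among the 49585 genes of each deposited table. RNA-seq was done on hind limb skeletal muscle of mice, in 4 groups of 3 libraries: wild-type (WT) uninjured, Myf6 knockout (KO) uninjured, WT injured and KO injured. Myf6 (also MRF4) is a muscle transcription factor, and the series asks whether it maintains the pool of muscle stem cells through secreted myokines. The sources used here do not give the strain, age or sex of the mice, how the knockout was made, what the injury was or how long before sampling it was done. Every uninjured library carries the letter L and every injured library the letter R, and if the letters name the left and right limb, which the labels do not state, side and injury cannot be told apart. The same 3 numbers recur with L and R within a genotype and differ between genotypes. They are read here as animals, which the labels do not state, and on that reading genotype and any difference of litter or batch cannot be told apart.

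FoxO proteins are transcription factors that insulin and IGF-1 hold out of the nucleus through the kinase Akt. When that signal is low, as in fasting, disuse or glucocorticoid excess, FoxO factors enter the nucleus and raise genes of protein breakdown, among them the ubiquitin ligases atrogin-1 (Fbxo32) and MuRF1 (Trim63). Glucocorticoids also act on these genes through their receptor and through Klf15 and Cebpd, and they induce Ddit4.

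Levels are in RPM, reads of a gene per 1000000 reads assigned to genes, and are compared between libraries but not between genes, since RPM does not allow for transcript length. Library size ranged from 1880087 to 49392472 reads with a median of 26499858, and the smallest library was uninjured WT replicate 2. The lowest read count of any of the 10 genes in any library was 13, for Fbxo30 in that library. Mitochondrial genes took 3.63 to 23.2% of the reads. Myf6 itself was at 25 to 111 RPM in uninjured WT and 1.86 to 3.46 RPM in uninjured KO muscle, and at 47.9 to 121 and 2.88 to 3.32 RPM in injured muscle, so some reads on the gene remained in KO. All 10 markers of skeletal muscle fibres were detected in each group, with a summed level of 133504 to 216724 RPM over the 12 libraries. In whole muscle, fewer cells of a type and less RNA per cell cannot be told apart. The labels do not say whether libraries of a group were prepared independently beyond their numbers, and p-values measure only the spread between these libraries.

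Differences are given on the log2(RPM + 1) scale, as KO minus WT or injured minus uninjured, with the limma standard error (SE) and a p-value adjusted over all genes tested. A gene is called at a limma adjusted p under 0.05. None of the 10 genes was called in uninjured KO against WT muscle, where 35 of 12460 genes (0.281%) were. None was called in injured KO against WT muscle, where 34 of 12625 genes (0.269%) were. At an unadjusted p under 0.05, 1 of the 10 (Foxo4, higher in KO) passed in uninjured muscle, against 14.2% of all genes. In injured muscle 2 of the 10 (Trim63 and Cebpd, both lower in KO) passed, against 10.3% of all genes. By the other tools, edgeR called none of the 10 in either comparison, and DESeq2 called 1 (Foxo4) in uninjured and none in injured muscle. Over all genes edgeR called 55 in uninjured and 33 in injured muscle, and DESeq2 called 663 and 427. The median log2 change of the 10 was -0.23 in uninjured muscle, where the median of all genes was -0.18, and -0.22 in injured muscle, where that of all genes was 0.01. Scaling moved the uninjured median of all genes from -0.18 to 0.02 with TMM factors and to -0.32 with reads outside mitochondrial genes, so uninjured differences of that size depend on the scaling.

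**Figure D1:**
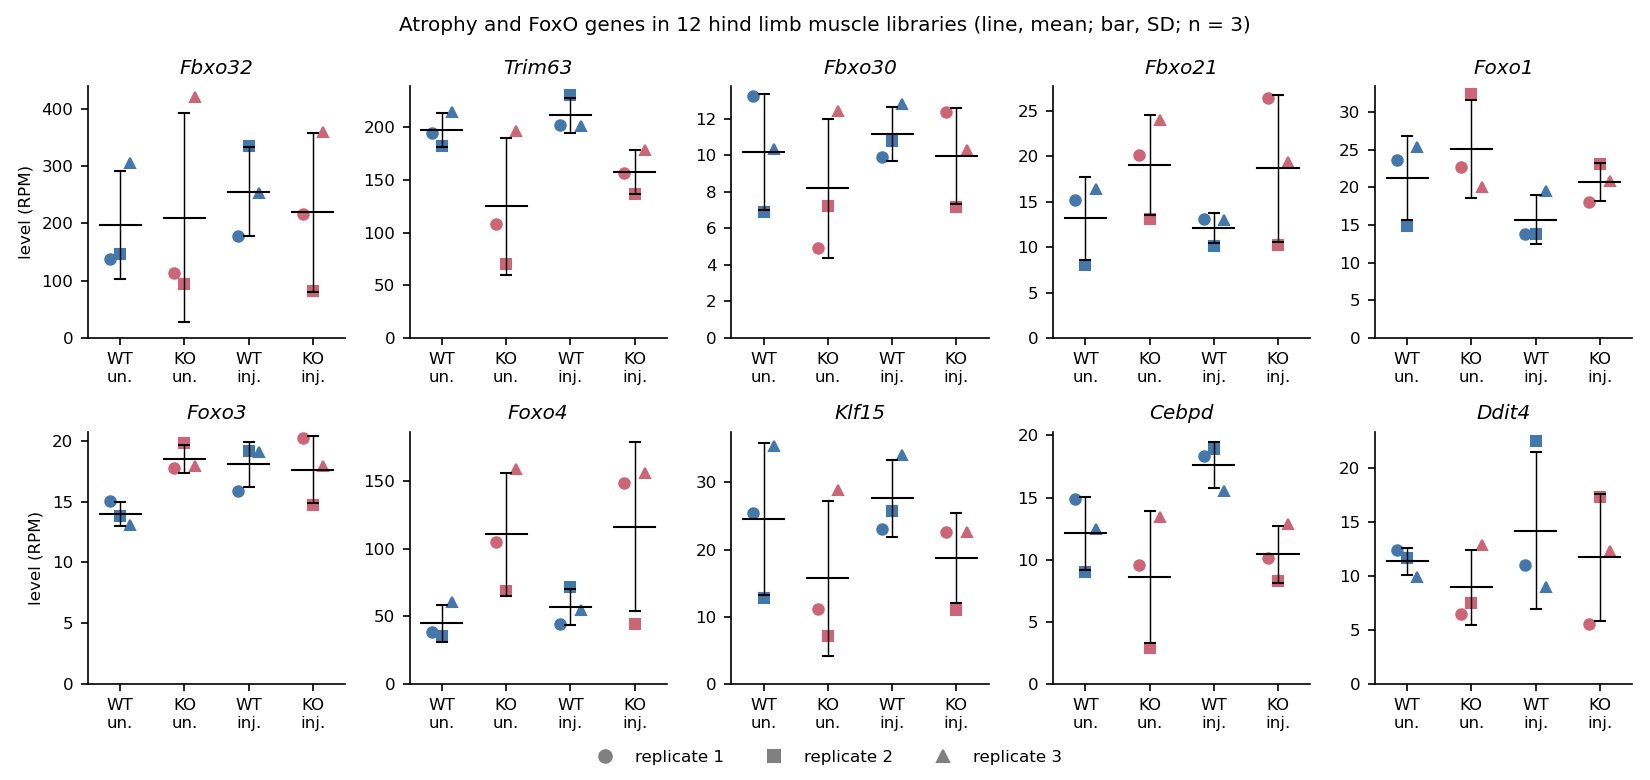
Level in RPM (vertical axes, each from 0) of the 10 genes in the 4 groups (un., uninjured; inj., injured), 1 panel per gene, with points for libraries, lines for group means and bars for the SD (n = 3). Foxo4 lies higher in all 3 uninjured KO than in all 3 uninjured WT libraries, while Trim63, Klf15 and Cebpd lie lower in all 3 injured KO than in all 3 injured WT libraries.

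Among the FoxO factors, Foxo4 (ENSMUSG00000042903.8, chrX:101254261-101260873, GRCm38.p6) had the largest estimated difference of the 10 genes between genotypes. The uninjured WT libraries had 38.4, 35.6 and 60.7 RPM and the uninjured KO libraries 105, 68.7 and 159 RPM. Each KO library was above each WT library, a separation with KO above that 6.2% of all genes showed. WT averaged 44.9 ± 13.8 RPM and KO 111 ± 45.5 RPM (SD, n = 3 each). The log2 difference was 1.24 (SE 0.36, 95% interval 0.43 to 2.06), which did not pass with a limma adjusted p of 0.186. The exact two-sided permutation p was 0.1, the smallest that 3 against 3 libraries allow. Foxo4 passed with DESeq2 on the recovered reads (log2 1.45, adjusted p 0.000121), with limma after TMM scaling (log2 1.48, adjusted p 0.0373) and in the authors' deposited table (log2 1.46, q-value 0.0012). It did not pass with edgeR (log2 1.45, adjusted p 0.0577) or with limma after scaling to non-mitochondrial reads (log2 1.09, adjusted p 0.112). Over 15 alternatives its log2 difference was 0.94 to 1.54. Of these 4 called it, and none of those with 1 library left out did.

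After injury the WT libraries had Foxo4 at 44.5, 71.4 and 54.8 RPM and the KO libraries at 149, 44.2 and 156 RPM. Replicates 1 and 3 of KO were above all injured WT libraries and replicate 2 was below them, so the groups overlapped. Its log2 difference was 0.85 (SE 0.49), with a limma adjusted p of 0.597. Without injured KO replicate 2 it was 1.43 with a limma adjusted p of 0.00845, and 2343 genes over the whole table were then called in place of 34.

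Foxo4 levels were set beside the mitochondrial share of each library. The 4 libraries with the highest Foxo4 levels, 105 to 159 RPM, were all KO and had the 4 lowest mitochondrial shares, 3.63 to 6.76%. The same 4 libraries had the highest levels of Fbxo21, 19.4 to 26.4 RPM, the next highest being 16.4 RPM. The KO libraries with high shares, uninjured replicate 2 at 15.3% and injured replicate 2 at 23.2%, had Foxo4 at 68.7 and 44.2 RPM. The WT libraries spanned 8.35 to 22.3% and had Foxo4 at 35.6 to 71.4 RPM. After scaling to reads outside mitochondrial genes the uninjured log2 difference was 1.09 in place of 1.24, and the part of whatever moves with the mitochondrial share in the Foxo4 result was otherwise not tested. The summed level of the 10 fibre markers was also higher in each uninjured KO library (201469 to 216724 RPM) than in each uninjured WT library (146655 to 157208 RPM). Leukocyte markers, 6 genes, summed to 39.6 to 70.7 RPM in uninjured KO and 70.7 to 135 RPM in uninjured WT libraries, with Ptprc at 0 in at least 1 KO library. The 4 markers of regenerating fibres (Myh3, Myh8, Myog and Myod1) summed to 2340.3, 1265 and 2009 RPM in uninjured KO libraries. Uninjured WT libraries had 979, 665 and 1039 RPM, without overlap. The sums of fibroblast, endothelial, adipocyte, red blood cell and Schwann cell markers overlapped between the uninjured groups. Of single genes, 6.2% had uninjured KO wholly above WT and 15.5% wholly below. A sum can rest on few genes. By gene, the median log2 difference of the 4 regenerating fibre markers was 0.44, and 1 had an unadjusted limma p under 0.05. In injured muscle the 4 markers summed to 2201, 799 and 1957 RPM in KO and 1532, 1795 and 1061 RPM in WT libraries. Replicate 2 was the lowest injured KO library, as for Foxo4. That library also had the lowest fibre marker sum of any library, at 133504 RPM, the next lowest being 146655 RPM. Its endothelial (356 RPM), Schwann cell (1740 RPM) and red blood cell (579 RPM) sums were the highest of any library. The next highest were 240, 907 and 548 RPM. Its leukocyte, fibroblast and adipocyte sums were at neither end of the range. The part of these markers in the Foxo4 result, or in the fits without that library, was not tested.

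The ratio of Foxo4 to Foxo3 within a library does not depend on the scaling of the library. It was 2.56, 2.58 and 4.63 in uninjured WT and 5.90, 3.46 and 8.86 in uninjured KO libraries, and the groups overlapped (exact permutation p 0.2). It was 2.80, 3.73 and 2.87 in injured WT and 7.37, 3.004 and 8.72 in injured KO libraries, which also overlapped (exact permutation p 0.2). Replicate 2 was the lowest KO library in both conditions.

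**Figure D2:**
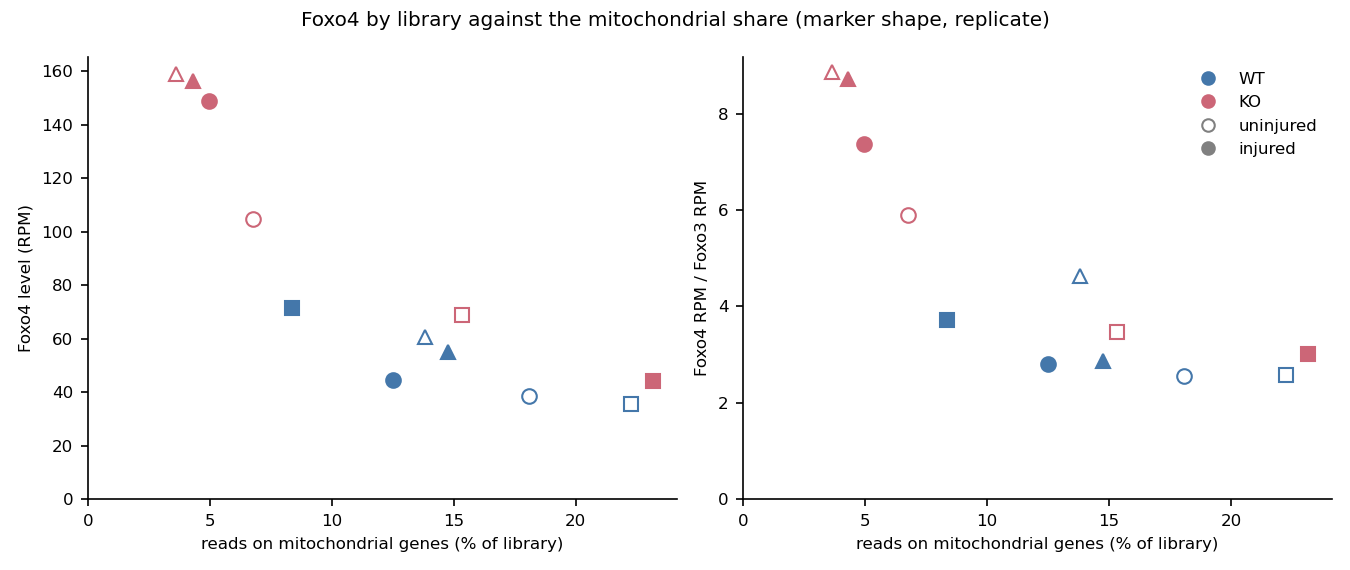
Foxo4 level in RPM (left) and the ratio of Foxo4 to Foxo3 RPM (right) against the percentage of reads on mitochondrial genes, 1 point per library (blue WT, red KO, open uninjured, filled injured; circle, square and triangle for replicates 1, 2 and 3). The 4 KO libraries with mitochondrial shares of 3.63 to 6.76% have the 4 highest Foxo4 levels, and the 2 KO libraries at 15.3 and 23.2% lie among or near the WT libraries.

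Foxo3 (ENSMUSG00000048756.11, chr10:42181845-42276695), a main activator of atrophy genes in muscle, varied least of the 10. Over the 12 libraries it ranged from 13.1 to 20.2 RPM, and its SD of log2(RPM + 1) was 0.20, at the 3.40th percentile of the genes tested. Uninjured WT libraries had 15.03, 13.8 and 13.1 RPM and uninjured KO libraries 17.8, 19.8 and 17.96 RPM. All 3 KO libraries were above all 3 WT libraries, by a log2 difference of 0.38 (SE 0.28, limma adjusted p 0.581). After injury the WT libraries were at 15.9, 19.2 and 19.1 RPM and the KO libraries at 20.2, 14.7 and 17.9 RPM. Those groups overlapped, with a log2 difference of -0.04 (SE 0.19, limma adjusted p 0.964).

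Foxo1 (ENSMUSG00000044167.6, chr3:52268337-52350109), which is induced in fasted muscle, was at 23.6, 14.9 and 25.3 RPM in uninjured WT and 22.7, 32.4 and 19.97 RPM in uninjured KO muscle. Injured WT libraries had 13.7, 13.9 and 19.5 RPM, against 18.1, 23.1 and 20.9 RPM in injured KO libraries. The groups overlapped in both conditions. The log2 differences were 0.23 (SE 0.33) and 0.39 (SE 0.20), with limma adjusted p-values of 0.8 and 0.564.

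Of the 4 ubiquitin ligase genes, Trim63 (ENSMUSG00000028834.13, chr4:134315120-134329629) was the one whose injured groups did not overlap. It encodes MuRF1, a ligase of the sarcomere that marks thick-filament proteins for breakdown. Without injury the WT libraries had 195, 182 and 215 RPM and the KO libraries 108, 70.1 and 197 RPM. KO replicate 3 lay within the WT range and the other two KO libraries below it. The log2 difference was -0.78 (SE 0.36, 95% interval -1.60 to 0.04, limma adjusted p 0.373). With injury the WT libraries had 202, 231 and 201 RPM and the KO libraries 157, 137 and 179 RPM. Each KO library was below each WT library, which 8.63% of all genes also showed. WT averaged 211 ± 16.8 and KO 158 ± 21.0 RPM (SD, n = 3 each), and the log2 difference was -0.43 (SE 0.17, 95% interval -0.84 to -0.01). Its unadjusted p was 0.0443 and its limma adjusted p 0.468, and the exact permutation p was 0.1. Over 15 alternatives in each comparison the log2 difference stayed below 0, at -1.17 to -0.43 in uninjured and -0.52 to -0.33 in injured muscle, and none called the gene.

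Fbxo32 (ENSMUSG00000022358.6, chr15:58175879-58214892), whose product atrogin-1 is the substrate-binding part of an SCF ubiquitin ligase, varied widely within groups. Uninjured WT muscle had 138, 147 and 305 RPM, and uninjured KO muscle 114, 94.6 and 419.7 RPM. Injured WT muscle had 178, 335 and 253 RPM, and injured KO muscle 216, 82.0 and 359.7 RPM. The highest and lowest libraries of both conditions were KO libraries. The log2 differences were -0.15 (SE 0.55) and -0.41 (SE 0.53), with limma adjusted p-values of 0.935 and 0.833. The sign in uninjured muscle reversed with edgeR, DESeq2, TMM scaling and the authors' deposited table, at 0.09 to 0.19. Its SD over the 12 libraries, 0.79 on the log2 scale, was at the 90.6th percentile of the genes tested, as was that of Foxo4.

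The ratio of Fbxo32 to Trim63 was 0.708, 0.805 and 1.42 in uninjured WT and 1.05, 1.35 and 2.13 in uninjured KO libraries. Its injured values were 0.880, 1.45 and 1.26 in WT and 1.38, 0.599 and 2.01 in KO. The groups overlapped in both conditions, with exact permutation p-values of 0.3 and 1.

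Fbxo30 and Fbxo21 encode further F-box proteins of the muscle atrophy programme. Fbxo30 (ENSMUSG00000047648.13, chr10:11281330-11305750) was at 13.3, 6.91 and 10.4 RPM in uninjured WT and 4.95, 7.24 and 12.4 RPM in uninjured KO muscle. Its injured levels were 9.90, 10.8 and 12.8 RPM in WT and 12.4, 7.19 and 10.3 RPM in KO. Fbxo21 (ENSMUSG00000032898.9, chr5:117976770-118010198) was at 15.2, 7.98 and 16.4 RPM in uninjured WT and 20.1, 13.1 and 24.0 RPM in uninjured KO muscle. Its injured levels were 13.1, 10.1 and 13.0 RPM in WT and 26.4, 10.2 and 19.4 RPM in KO. Both genes overlapped between genotypes in both conditions. The log2 differences were -0.32 and -0.17 for Fbxo30 and 0.52 and 0.51 for Fbxo21, with limma adjusted p-values of 0.576 to 0.839. Without injured KO replicate 2 the injured difference of Fbxo21 was 0.86, with a limma adjusted p of 0.0274. In that fit 2343 genes over the whole table were called in place of 34.

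**Figure D3:**
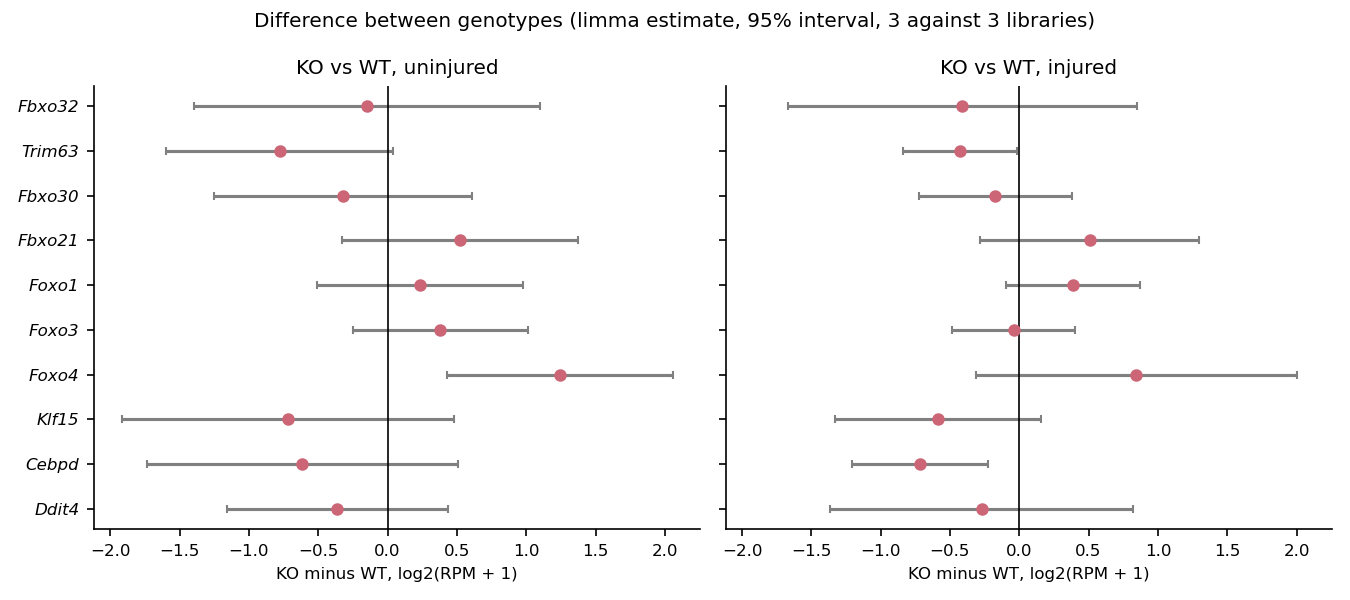
KO minus WT difference on the log2(RPM + 1) scale (horizontal axis) for the 10 genes in uninjured (left) and injured (right) muscle, with points for limma estimates and bars for 95% intervals (3 against 3 libraries). The interval of Foxo4 lies above 0 in uninjured muscle and those of Trim63 and Cebpd below 0 in injured muscle, before adjustment over all genes, and the others include 0.

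Klf15, Cebpd and Ddit4 are each induced by glucocorticoids in muscle. Cebpd (ENSMUSG00000071637.5, chr16:15887286-15889545), a transcription factor of inflammation and wasting, was at 14.9, 9.04 and 12.5 RPM in uninjured WT and 9.59, 2.91 and 13.4 RPM in uninjured KO muscle. Injured WT libraries had 18.4, 18.9 and 15.5 RPM, against 10.1, 8.30 and 12.9 RPM in injured KO. The uninjured groups overlapped and the injured groups did not, KO being below WT. After injury WT averaged 17.6 ± 1.85 RPM and KO 10.4 ± 2.29 RPM (SD, n = 3 each). The log2 difference was -0.72 (SE 0.21, 95% interval -1.21 to -0.23), with an unadjusted p of 0.0105, a limma adjusted p of 0.327 and an exact permutation p of 0.1. Over 15 alternatives it was -0.87 to -0.58, with adjusted p-values from 0.057 to 0.971. The uninjured log2 difference was -0.62 (SE 0.50, limma adjusted p 0.62). Leukocyte markers summed to 91.6 to 117 RPM in injured WT and 76.9 to 85.7 RPM in injured KO libraries, without overlap. Adipocyte markers, 4 genes, summed to 379 to 1284 RPM in injured WT and 1304 to 2875 RPM in injured KO libraries, also without overlap. The other marker sums overlapped between the injured groups. Of single genes, 8.29% had injured KO wholly above WT and 8.63% wholly below. The part of these markers in the injured Cebpd, Trim63 and Klf15 differences was not tested.

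Klf15 (ENSMUSG00000030087.11, chr6:90461043-90491803), a regulator of amino acid breakdown in muscle, was at 25.5, 12.8 and 35.5 RPM in uninjured WT and 11.2, 7.16 and 28.9 RPM in uninjured KO muscle. The injured libraries had 23.1, 25.7 and 34.1 RPM for WT and 22.6, 10.96 and 22.6 RPM for KO. The injured KO libraries were all below the injured WT libraries, though KO replicates 1 and 3 were close to the lowest WT library. The log2 differences were -0.72 (SE 0.53) in uninjured and -0.59 (SE 0.31) in injured muscle, with limma adjusted p-values of 0.584 and 0.571.

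Ddit4 (ENSMUSG00000020108.3, chr10:59949675-59951770) encodes REDD1, an inhibitor of mTORC1. Levels were 12.5, 11.7 and 9.95 RPM in uninjured WT and 6.47, 7.48 and 12.9 RPM in uninjured KO muscle. Injured levels were 11.03, 22.5 and 9.03 RPM for WT and 5.59, 17.4 and 12.3 RPM for KO. In both genotypes replicate 2 was the highest injured library. The groups overlapped, and the log2 differences were -0.36 (SE 0.35) and -0.27 (SE 0.46), with limma adjusted p-values of 0.692 and 0.877.

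In total, 2 of the 10 genes (Foxo4 and Foxo3) had all uninjured KO libraries above WT and none had all below, against 6.2% and 15.5% of all genes. In injured muscle none had all KO libraries above WT and 3 (Trim63, Klf15 and Cebpd) had all below, against 8.29% and 8.63% of all genes. The estimate was above 0 for 4 of the 10 in uninjured muscle, where it was for 36.8% of all genes, and for 3 of the 10 in injured muscle, against 52.0% of all genes.

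Single libraries stood at the end of their group for many of the 10 genes. Uninjured KO replicate 2 was the lowest of its group for 6 of the 10, against 68.4% of all genes, and uninjured KO replicate 3 the highest for 8 of the 10, against 58.0% of all genes. Injured KO replicate 2 was the lowest of its group for 8 of the 10, against 45.8% of all genes. The other two, Foxo1 and Ddit4, were highest in that library, as were 46.3% of all genes. Uninjured WT replicate 2, the library of lowest depth, was the lowest of its group for 7 of the 10, against 57.8% of all genes.

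The comparison of injured with uninjured muscle asked how the 10 genes responded to the injury within each genotype. None was called in WT or in KO muscle by limma, edgeR or DESeq2, and none had an unadjusted limma p under 0.05. Over all 13337 genes, limma called 0.0% in each genotype, and at an unadjusted p under 0.05 it passed 1.29% in WT and 3.51% in KO. The median log2 change of the 10 was 0.23 in WT and 0.23 in KO, where the medians of all genes were 0.09 and 0.29. The estimate was above 0 for 8 of the 10 in WT, against 62.4% of all genes, and for 6 of the 10 in KO, against 80.9%.

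In WT muscle Foxo3 and Cebpd were higher in all 3 injured than in all 3 uninjured libraries, as were 7.48% of all genes, and none of the 10 was lower in all 3, as were 2.54% of all genes. Foxo3 averaged 13.99 ± 0.969 RPM uninjured and 18.1 ± 1.86 RPM injured (SD, n = 3 each), which is 0.34 on the log2 scale (SE 0.22). Cebpd averaged 12.1 ± 2.93 and 17.6 ± 1.85 RPM (SD, n = 3 each), which is 0.52 on the log2 scale (SE 0.41). The limma adjusted p was 1 for both. That separation makes both genes higher in the injured library of each of the 3 WT numbers, so the pairs add nothing to it. Of all genes, 17.5% were higher in all 3. Foxo1 was lower in the injured library of each of the 3 WT numbers, with log2 changes of -0.74 to -0.10, and 8.5% of all genes were lower in all 3.

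In KO muscle the injured and uninjured libraries of all 10 genes overlapped, while 6.12% of all genes had all injured libraries above and 0.622% all below. None of the 10 moved the same way in all 3 KO numbers, while 19.8% of all genes were higher and 3.85% lower in all 3 injured libraries. Injured minus uninjured Cebpd was between -0.06 and 1.25 on the log2 scale over the 3 numbers, and that of Ddit4 between -0.18 and 1.12. Trim63 changed by 0.45 on average (SE 0.30, limma adjusted p 0.728), and Foxo4 by -0.05 (SE 0.45, limma adjusted p 0.974).

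Whether the response to injury differed between the genotypes was tested as an interaction, KO response minus WT response. No gene of the 10 passed by limma, edgeR or DESeq2 or at an unadjusted limma p under 0.05, nor did any of the 13337 genes by limma after adjustment (0.0%), while 1.56% passed unadjusted. The estimates ran from -0.42 (SE 0.31) for Foxo3 to 0.35 (SE 0.43) for Trim63, each with a limma adjusted p of 1, and 5 of the 10 were above 0, against 68.1% of all genes. The 95% interval was widest for Fbxo32, at -2.07 to 1.55.

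**Figure D4:**
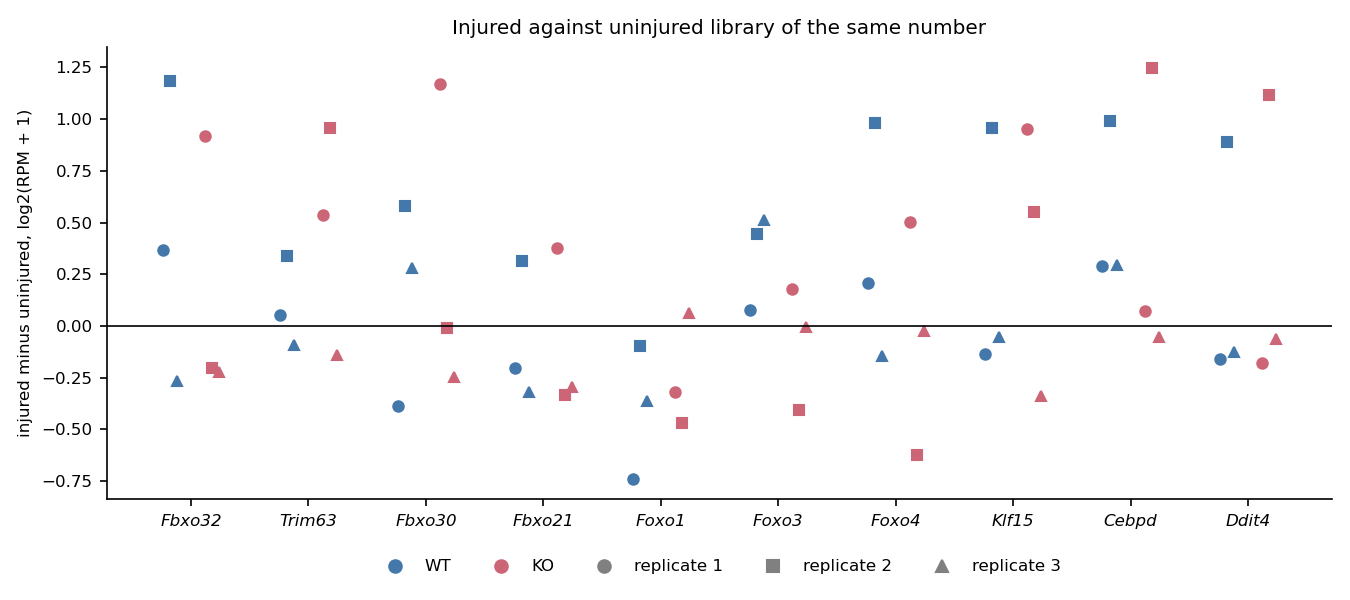
Injured minus uninjured level on the log2(RPM + 1) scale (vertical axis) for each of the 10 genes, 1 point per pair of libraries with the same number (blue WT, red KO; circle, square and triangle for replicates 1, 2 and 3). Foxo3 and Cebpd lie above 0 and Foxo1 below 0 in all 3 WT pairs, and no gene lies on 1 side of 0 in all 3 KO pairs.

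The wider pathway was described with 5 lists, in all 78 measured genes besides the 10. None of the 78 was called by the main limma fit in any of the 5 comparisons. At an unadjusted p under 0.05, 3 were higher and 4 lower in uninjured KO muscle, against 14.2% of all genes, and 3 higher and 2 lower in injured KO muscle, against 10.3%. Some alternatives called list genes. DESeq2 called 2 insulin and Akt genes, 2 FoxO targets and 1 ubiquitin gene in uninjured muscle, among 663 of all genes. In injured muscle DESeq2 called 2, 1 and 1, among 427. edgeR called none in either condition. Without injured KO replicate 2 limma called 6, 4 and 4 of these lists. It then also called 2 autophagy and 2 glucocorticoid genes, among 2343 of all genes.

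Of 15 genes of insulin and Akt signalling, Sgk1, a kinase that also phosphorylates FoxO factors, had the smallest p. Its level was 147, 139 and 159 RPM in uninjured WT and 25.1, 23.4 and 97.5 RPM in uninjured KO muscle. Injured WT libraries had 153, 211 and 156 RPM and injured KO libraries 67.2, 63.7 and 88.4 RPM. Neither condition had an overlap of the groups, KO being below. Of all genes, 15.5% showed this in uninjured and 8.63% in injured muscle. The log2 differences were -1.91 (SE 0.49, limma adjusted p 0.151) and -1.23 (SE 0.21, limma adjusted p 0.105), and 5 and 3 of 15 alternatives called them. Akt2 differed by 0.69 in uninjured muscle (limma adjusted p 0.426) and Akt1 by 0.54 in injured muscle (limma adjusted p 0.357).

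Of 18 other ubiquitin ligases and partners, Trim54, a sarcomere protein related to MuRF1, had a log2 difference of 0.47 in uninjured muscle (limma adjusted p 0.418). All 3 uninjured KO libraries were above all 3 WT libraries for this gene, as for 6.2% of all genes. Rbx1, a subunit of cullin ligases, had a log2 difference of -0.34 in injured muscle (limma adjusted p 0.522), with KO below WT in all libraries. In injured muscle 8.63% of all genes had KO wholly below WT.

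Of 20 further FoxO target genes, Fbxo31 was higher in all KO than in all WT libraries of both conditions, by 0.84 (limma adjusted p 0.214) and 0.59 (limma adjusted p 0.463) on the log2 scale. Such a separation was shown by 6.2% of all genes in uninjured and 8.29% in injured muscle. Fbxo31 was called by 4 of 15 alternatives in uninjured and 1 of 15 in injured muscle. Eif4ebp1, an inhibitor of translation, differed by 0.67 in uninjured muscle (limma adjusted p 0.328), and the cell cycle inhibitor Cdkn1a by 0.80 in injured muscle (limma adjusted p 0.251). Of 15 autophagy and lysosome genes, Tfeb, a transcription factor of lysosomal genes, and Lamp2, a lysosomal membrane protein, had the smallest p in uninjured muscle, at 0.61 and -0.73 (limma adjusted p 0.306 and 0.343). Becn1 and Atg7 had it in injured muscle, at 0.74 and -0.31 (limma adjusted p 0.54 and 0.593).

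Of 10 genes of the glucocorticoid receptor and its classic targets, Tsc22d3, which encodes GILZ, had the smallest p. The level was 278, 366 and 305 RPM in uninjured WT and 114, 129.7 and 256 RPM in uninjured KO muscle, without overlap, and the log2 difference was -1.01 (SE 0.33, limma adjusted p 0.219). Tsc22d3 was called there by 2 of 15 alternatives. In uninjured muscle 15.5% of all genes had KO wholly below WT. With injury the levels were 242, 400.1 and 287 RPM for WT and 126.9, 212 and 249.5 RPM for KO, with overlap, and differed by -0.68 (SE 0.31, limma adjusted p 0.523). Per1 differed by -0.80 in uninjured muscle (limma adjusted p 0.488) and Fkbp5 by 0.69 in injured muscle (limma adjusted p 0.559). The median log2 difference of this list was -0.21 in uninjured and -0.10 in injured muscle, beside -0.18 and 0.01 for all genes.

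In the injury comparisons 1 of the 78 genes had an unadjusted p under 0.05. This was Trim54, with a log2 change of -0.52 in KO muscle (limma adjusted p 0.728).

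Genes whose pattern over the 12 libraries was closest to a member were found among 7301 genes with a mean of at least 5 RPM and an SD of at least 0.3 on the log2 scale. The measure was the root mean square distance of log2(RPM + 1), each gene centred on its own mean. The libraries share depth and scaling differences, which enter this measure. For Fbxo32 the closest were Got1 at 0.24, Klhl38 at 0.25 and Ppp1r14c at 0.25, where the median over the candidates was 0.72. For Trim63 they were Pip5k1a and Stard7 at 0.11 and Tle1 at 0.13, with a median of 0.52. For Ddit4 they were Mpp3 at 0.30, Lancl1 at 0.30 and Prkcd at 0.32, with a median of 0.65. Of the other 9 genes, the one nearest to Trim63 was Cebpd at 0.26, and Fbxo32 stood at 0.54 from it.

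Myf6 binding near the 10 genes was read from the deposited peak list of 1 ChIP-seq library, made with a Flag antibody from primary myotubes grown from adult satellite cells, with 1 control. Per the file headers, 6820784 of 13180201 ChIP tags and 6581071 of 12310956 control tags were kept after removal of duplicates. The list comes from another cell preparation than the muscle RNA and has no replicate. Positions, heights and fold enrichment over the local background are the authors'. The peak file names no build. The submitters' processing notes list mm10 and GRCm38.p5, and gene positions were taken from RefSeq on GRCm38.p6, which has the same chromosome sequences.

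A peak lay within the gene or within 50 kb of its annotated start for 8 of the 10 genes, with 19 peaks in all. Of 10003 genes of the expression tables with a position, 54.8% had such a peak. Longer genes have more room for a peak, and Foxo3 and Foxo1 span 94851 and 81773 bases. No peak was listed for Cebpd or Fbxo30. With a fold enrichment of at least 10, 4 genes had a peak (Fbxo32, Trim63, Foxo3 and Ddit4), as did 22.6% of all genes.

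The highest enrichment was in Foxo3, 22.4-fold at chr10:42248764-42249006, inside the gene and 27.8 kb from its start. Trim63 had a 12.02-fold peak at chr4:134319765-134319987, inside the gene and 4.77 kb downstream of the start. Ddit4 had a 7.20-fold peak at chr10:59950836-59950980, inside the gene and 877 bases from the start, and a 12.2-fold peak 35.5 kb away outside it. The 14.0-fold peak counted for Fbxo32, at chr15:58260964-58261163, lay outside the gene and 46.2 kb from its nearer end. For Fbxo32, Foxo4 and Cebpd no strand was at hand, and both gene ends were taken as possible starts. Foxo4 had 1 peak of 6.29-fold, inside the gene at chrX:101260467-101260593. Klf15 and Fbxo21 had 1 peak each, of 5.16-fold and 5.15-fold, inside the gene.

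**Figure D5:**
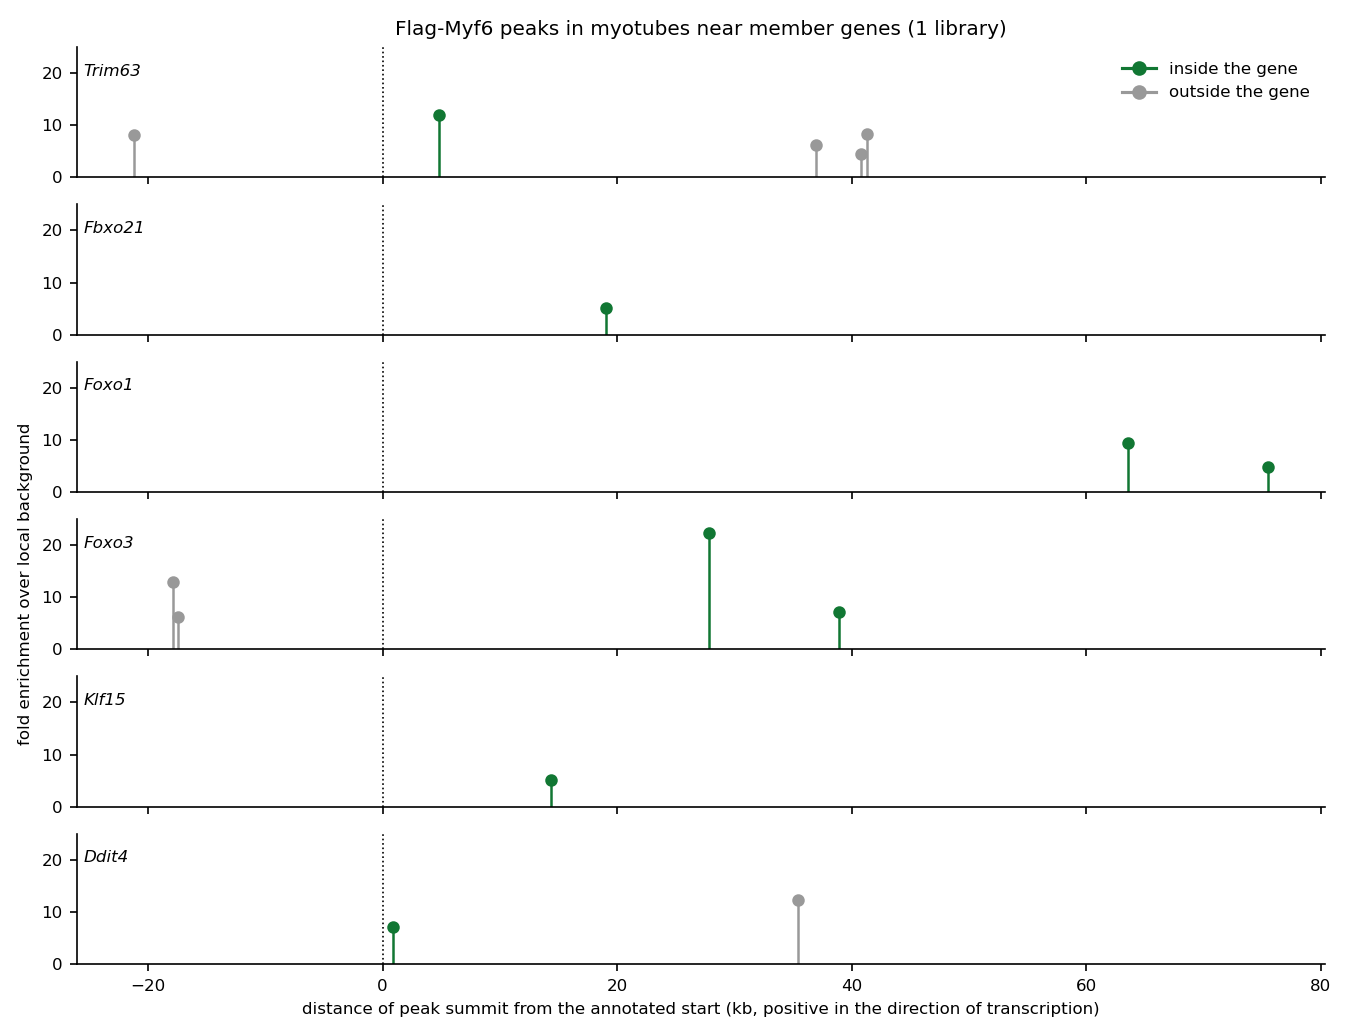
Fold enrichment over the local background (vertical axes) of the Flag-Myf6 peaks against distance of the summit from the annotated start in kb (horizontal axis, positive in the direction of transcription, dotted line at the start), for the 6 genes with a peak and a known strand. Peaks inside the gene are green and others grey, and the highest peaks inside genes are in Foxo3 at 27.8 kb (22.4-fold) and in Trim63 at 4.77 kb (12.02-fold).

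Promoter sequences were at hand for 7 of the 10 genes, from RefSeq on GRCm38.p6. The 250 bases before the start were searched on both strands for the E-box CANNTG, the core site of myogenic factors, the FoxO motif GTAAACA, and the short glucocorticoid receptor motif AGAACA. Trim63 is shown because it is the only one of the 7 with all 3 motifs. Capitals mark the matches, on the plus strand, at chr4:134314870-134315119, which ends at the base before the start.
Trim63: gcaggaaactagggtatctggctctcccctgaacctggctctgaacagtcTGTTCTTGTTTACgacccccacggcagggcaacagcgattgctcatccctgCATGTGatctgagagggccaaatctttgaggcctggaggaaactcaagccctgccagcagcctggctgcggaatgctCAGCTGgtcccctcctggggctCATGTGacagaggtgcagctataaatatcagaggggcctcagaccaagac

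In this sequence TGTTCT, the receptor motif read on the other strand, begins 200 bases before the start and is followed directly by TGTTTAC, the FoxO motif read on the other strand, at 194. E-boxes begin at 149 (CATGTG), 72 (CAGCTG) and 50 (CATGTG) bases before the start. Of 32851 RefSeq promoters of the same length, 3.17% held the FoxO motif, 16.1% the receptor motif and 66.2% an E-box. Klf15 had an E-box CACGTG at 228 and 172 bases before a start that lies inside its annotated span, and Foxo1 had CACTTG at 193. None of the 3 motifs was in this window of Fbxo30, Fbxo21, Foxo3 or Ddit4. No peak of the deposited list overlapped the Trim63 sequence shown, the nearest being the one 4.77 kb downstream.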

How the data were processed

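RNA libraries were made with TruSeq kits from Trizol extracts, per the labels' protocols. The authors deposited RPM per gene and library in 1 table per condition, with their own log2 fold change, p-value and q-value. The submitters' processing notes name HISAT2 2.1.0, featureCounts, DESeq2, Bowtie 1.1.0 and MACS2 2.1.0.20140616, without roles. Peaks were called with MACS2 at a q cutoff of 0.05, with reads extended to 127 bp, and the list holds the pileup signal, the fold enrichment ratio, and p-values and q-values as −log10, per the file headers.

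Whole reads were recovered from the deposited RPM: 100% of tested values were whole within 0.1 read. A floor of 3 reads equals 0.0607 to 1.60 RPM, for counting error only. The test was limma 3.58.1 (R 4.3.3, trend) on log2(RPM + 1) over genes with at least 1 RPM in 3 libraries, Benjamini-Hochberg adjusted over all genes, two-sided. KO against WT was fitted on 6 libraries, and injury and interaction on all 12, which joins both tables. All 10 genes passed the filter. In simulated counts of uninjured KO against WT (12100 genes), limma called 90% of genes changed by 2 and 100% of those changed by 4 on the log2 scale, with 14 false calls. The changed genes were drawn from a middle range of levels. The simulation did not model the differences in mitochondrial share between libraries, so these rates need not hold for the real libraries. Smaller changes, such as those estimated for the 10 genes, were not simulated, so the share called at those sizes is not known. edgeR 4.0.16 and DESeq2 1.42.0 on recovered reads, other scalings, filters, a pseudocount of 0.1, a replicate block and left-out libraries were alternatives. Members and lists were chosen with earlier results of these data known. All 10 genes are named in each comparison, and per list the 2 genes with the smallest p in the KO against WT comparisons, apart from 1 gene that is not reported here. Of 80 listed pathway entries, Skp1 and Vps34 were not found by that name.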

Additional observations from a re-analysis of the deposited data

How the results depend on the processing

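The count of the 10 genes called in uninjured KO against WT muscle was 0 with limma and 1 (Foxo4) with DESeq2, TMM scaling, the replicate block and the authors' q-values. In injured muscle it was 0 to 2 when 1 library was left out. The 2 were Foxo4 and Fbxo21 without KO replicate 2, where 2343 genes over the whole table were called in place of 34. The count of the 10 was 0 in both injury comparisons and the interaction under each alternative run. The replicate block joins libraries of different numbers in the 2 genotypes, so the replicates were not taken as pairs. With each gene centred within its group, uninjured libraries of the same replicate deviated together weakly (r 0.04 to 0.37). Injured ones deviated oppositely (mean r -0.45). With the block, Foxo4 had a limma adjusted p of 0.0106 in uninjured muscle. The numbers, read as animals, joined uninjured and injured libraries at a mean r of 0.39 in KO and 0.02 in WT, and that block called none of the 10.

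The number of genes called over the whole table moved far more. In uninjured muscle it was 35, and 55 with edgeR, 663 with DESeq2, 107 with TMM scaling, 199 with non-mitochondrial scaling, 20 with a pseudocount of 0.1, 1 without a filter, 752 with the replicate block, 167 with all 12 libraries, 331 by the authors' q-values and 3 to 84 with a library left out. In injured muscle it was 34, and 427 with DESeq2, 19 without a filter, 0 with the replicate block, 56 with all 12 libraries, 225 by the authors' q-values and 0 to 2343 with a library left out. Of the 35 and 34 calls, 45.7% and 64.7% were higher in KO, and in uninjured muscle 57.0% were with TMM and 15.6% with non-mitochondrial scaling. In KO injury it was 1 without uninjured KO replicate 3, and 0 otherwise. With a fold enrichment of at least 10 the genes with a peak numbered 4, against 22.6% of all genes. Any peak inside the gene was counted, whatever its distance from the start. With peaks inside the gene or within 10 kb of its start the genes numbered 8, against 31.2% of all genes. With the 50 kb window they numbered 8, against 54.8%.

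The sign of small log2 changes reversed in 22 cases with all libraries and in 52 with 1 left out; the cause was not tested. With edgeR, DESeq2, TMM scaling and the authors' table, uninjured Fbxo32 was 0.18, 0.18, 0.089 and 0.19. With non-mitochondrial scaling the WT injury change of Trim63 was -0.0047, and the interaction was 0.12 for Fbxo21 and 0.041 for Cebpd. With edgeR, DESeq2 and TMM scaling the KO injury change of Fbxo32 was -0.089, -0.095 and -0.11. The interaction with these 3 was -0.028, -0.014 and -0.041 for Fbxo30, -0.14, -0.14 and -0.054 for Foxo1, -0.031, -0.026 and -0.061 for Klf15, and -0.16, -0.14 and -0.10 for Ddit4. With 1 library left out, KO against WT ranged from -0.82 to 0.25 for uninjured Fbxo32, and in injured muscle from -0.89 to 0.17 for Fbxo32, -0.33 to 0.023 for Fbxo30, -0.14 to 0.077 for Foxo3 and -0.60 to 0.14 for Ddit4. The WT injury change ranged from -0.071 to 0.35 for Fbxo30, -0.37 to 0.11 for Fbxo21, -0.14 to 0.57 for Klf15 and -0.17 to 0.45 for Ddit4. The KO injury change ranged from -0.31 to 0.83 for Fbxo32, -0.37 to 0.27 for Fbxo21, -0.18 to 0.039 for Foxo3, -0.36 to 0.54 for Foxo4, -0.021 to 0.92 for Klf15, -0.13 to 0.81 for Cebpd and -0.033 to 0.71 for Ddit4. The interaction ranged from -0.74 to 0.41 for Fbxo32, -0.13 to 0.46 for Fbxo30, -0.30 to 0.34 for Fbxo21, -0.71 to 0.19 for Foxo4, -0.28 to 0.66 for Klf15, -0.65 to 0.29 for Cebpd and -0.23 to 0.51 for Ddit4. Depth limits most the library of 1880087 reads, where 3 reads equal 1.60 RPM.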
